A study of Mus musculus with 4 samples.

Results

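Trp53, the gene of the transcription factor p53, and 9 of its core target genes were followed in cultured mouse keratinocytes (KCs), the cells that build the epidermis. The 10 genes were chosen by name (Trp53, Mdm2, Ccng1, Bax, Bbc3, Zmat3, Trp53inp1, Aen, Perp and Gdf15) and all 10 were found among the 25814 genes listed in each table. Polyadenylated RNA had been sequenced from KCs that were isolated from the tails of adult 129/sv mice, cultivated untreated in serum-free medium with little calcium, and split near confluence. There were 2 libraries of wild type (WT) animals and 2 of their Nfat5-/- littermates, which lack the osmo-sensitive transcription factor NFAT5. The loss is not limited to KCs, and the study describes this line as small, with atrophied kidneys and a raised blood sodium. Tails of both genotypes were shipped on ice before the KCs were prepared. The labels give no time in culture, no sex and no batch. They number the libraries as replicates, and the study describes the experiments as independent. The question addressed here was whether the output of p53 is raised in Nfat5-/- KCs, whose growth the study investigated.

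p53 is held at a low level in unstressed cells by Mdm2, which marks it for degradation, and it is regulated mostly as a protein, so that its RNA says little about its activity. After DNA damage, oncogene signals or other stress, p53 accumulates and switches on genes for cell cycle arrest, for apoptosis, for repair and for its own restraint. The RNA levels of these targets are a common readout of p53 activity. The arrest runs mainly through Cdkn1a, the gene of the CDK inhibitor p21, which lowers the genes of DNA replication and mitosis. In the epidermis the related factor p63, not p53, is required to build the tissue, and both factors can drive some shared targets such as Perp.

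Depth ranged from 16219445 to 23494436 reads in genes per library, and 12614 genes had enough reads to be tested. A count of 3 reads, the limit that a count of 0 allows, corresponded to 0.128 to 0.185 CPM (counts scaled to library size), which covers counting error only. Within either genotype the 2 libraries differed by more than sampling noise (chi-square per degree of freedom of 13.3 and 13.8), and none was treated as a second deposit of another. The Nfat5 gene itself did not separate the labels. Its level was 1.67 and 3.0 RPKM (exon reads normalised to exon length and library depth) in the WT libraries and 2.02 and 2.78 RPKM in those labelled Nfat5-/-, a log2 fold change of 0.09 (edgeR adjusted p = 0.913). The genotypes below are therefore those of the labels. Of the basal KC markers, Krt5 and Krt14 were the most abundant in each library, and the 8 markers of this type summed to between 11110 and 12890 RPKM.

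The binding site of p53 is made of 2 half-sites of 10 bases, and it is shown here for the members whose promoter carries one. RefSeq promoter windows (build GRCm38.p6, from 250 bases before to 50 bases after the transcription start) were matched by symbol for 7 of the 10 members. They were searched for the p53 half-site consensus, which reads the same on both strands, and for 2 adjoining half-sites without a spacer, with the C and G of each core kept and at most 3 bases off the consensus. A half-site without a mismatch was found in the windows of 5 of these 7 genes, against 9.55% of all 27025 genes with a window. The adjoining pair was found in 4 of the 7, against 1.63% of all genes. The genes were chosen as p53 and its targets, so these shares are not independent of the choice and are no test. The 7 genes have 11 windows, and all 27025 genes have 32851, so the shares per gene are not on an equal footing. A match that fits both searches is counted in both. Each sequence below has 30 bases, 5′ to 3′ on the strand of the gene, with the bases of the element that fit the consensus in capitals. The first 4 and the last hold the adjoining pair, and those of Mdm2 and Bax a single half-site.
Trp53 (chr11:69580279-69580308, plus strand, element at -75 to -56): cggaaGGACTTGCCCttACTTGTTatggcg
Ccng1 (chr11:40755457-40755486, minus strand, element at -195 to -176): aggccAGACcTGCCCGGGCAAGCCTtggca
Bbc3 (chr7:16309481-16309510, plus strand, element at -97 to -78): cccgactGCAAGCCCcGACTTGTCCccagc
Aen (chr7:78895932-78895961, plus strand, element at 11 to 30): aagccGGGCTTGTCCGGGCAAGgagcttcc
Mdm2 (chr10:117710925-117710954, minus strand, element at -186 to -177): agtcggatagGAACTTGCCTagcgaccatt
Bax (chr7:45467080-45467109, minus strand, element at -201 to -192): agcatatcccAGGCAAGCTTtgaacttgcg
Cdkn1a, for comparison (chr17:29090923-29090952, plus strand, element at -51 to -32): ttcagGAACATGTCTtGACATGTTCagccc
Positions count from the transcription start of the RefSeq window, with the first transcribed base as 1. The best fits were those of Ccng1 and Cdkn1a, with 1 base off the consensus in 20. The other pairs had 3 bases off it. The element of Aen lies downstream of 1 start site of that gene and, at -121 to -102, upstream of another. These matches describe the letters of the windows and were not tested as binding sites. Among 25 further p53 targets, 21 had a window, and the half-site was in 7 and the pair in 5 of these.

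Trp53 RNA differed between the genotypes by less than the spread of the libraries, whereas most of its targets had modestly higher values in both Nfat5-/- libraries. Of the 9 targets, 7 had both Nfat5-/- libraries above both WT libraries (Mdm2, Ccng1, Bax, Bbc3, Zmat3, Trp53inp1 and Aen). Among all genes tested, the libraries of the groups did not overlap in 46.5%, and did so with higher values in Nfat5-/- KCs in 21.6%. 1 member, Trp53inp1, passed the threshold, an edgeR adjusted p under 0.05, against 1.27% of all genes tested that passed it in either direction and 0.943% upwards. Without adjustment, 6 members had an edgeR p under 0.05 with a higher level in Nfat5-/- KCs, against 8.17% of all genes tested. The median log2 fold change of the 10 members was 0.32, and that of all genes tested -0.01. The values of Perp overlapped between the genotypes, and those of Gdf15 were on average lower in Nfat5-/- KCs.

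**Figure D1:**
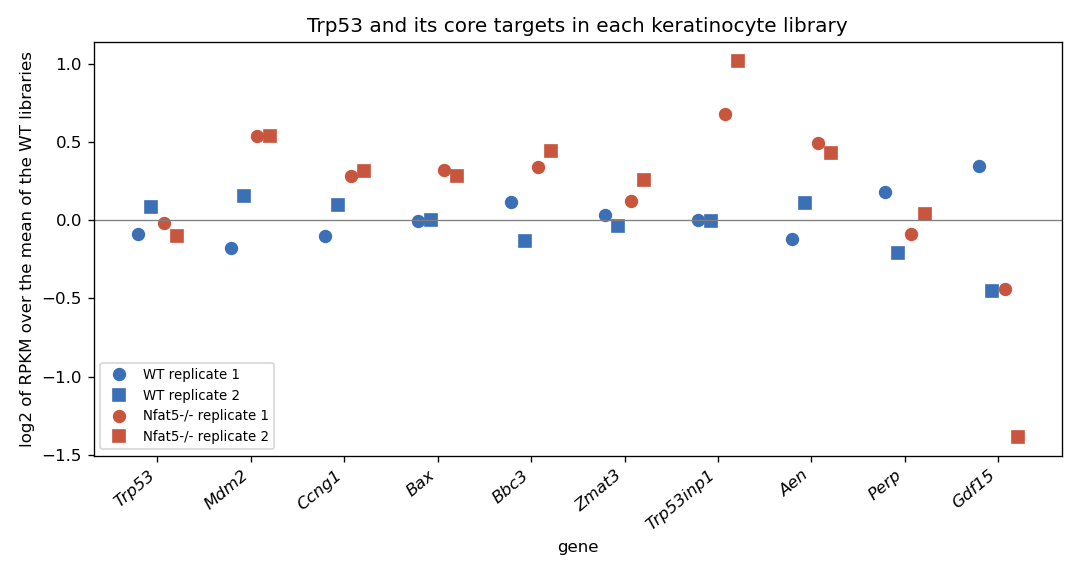
RPKM of Trp53 and its 9 core targets in each of the 4 libraries, as the log2 of the value over the mean of the WT libraries (y axis; 0 is the WT mean, circles are replicate 1 and squares replicate 2). Both Nfat5-/- libraries lie above both WT libraries for 7 targets, the 4 libraries of Trp53 and of Perp overlap, and Gdf15 is lowest in Nfat5-/- replicate 2.

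Trp53 (chromosome 11, 69580359 to 69591873, GRCm38) was measured at 91.1 and 103 RPKM in the WT libraries and at 95.6 and 90.2 RPKM in the Nfat5-/- libraries. The groups overlapped, and the log2 fold change was -0.04 (95% interval -0.29 to 0.21, edgeR adjusted p = 0.902). This interval corresponds to between 0.820 and 1.15 times the WT level.

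2 members restrain p53. Mdm2 (chromosome 10, 117688875 to 117710758), the ubiquitin ligase of p53 and at the same time its target, was at 25.6 and 32.3 RPKM in the WT libraries and at 42.1 and 42.2 RPKM in the Nfat5-/- libraries. The groups did not overlap, and the Nfat5-/- libraries lay closer to each other than the WT libraries did. The log2 fold change was 0.56 (95% interval 0.25 to 0.86), with an unadjusted edgeR p of 0.00328 and an adjusted p of 0.103, which misses the threshold. DESeq2 gave an adjusted p of 0.0111 for the same gene, and edgeR one of 0.0196 without WT replicate 2. In this and all other fits with a library left out, the lone library of a genotype adds nothing to the spread and is assumed to vary like the other pair. Without WT replicate 1 the edgeR adjusted p was 0.230 (log2 fold change 0.41), without Nfat5-/- replicate 1 or 2 it was 0.244 or 0.507, and limma-trend on log2(RPKM + 1) gave 0.280. Ccng1 (chromosome 11, 40748552 to 40755311) encodes cyclin G1, which acts back on p53 through Mdm2. It was among the more abundant targets, at 157 and 179 RPKM in the WT libraries and at 204 and 209 RPKM in the Nfat5-/- libraries. Its groups were apart too, with a log2 fold change of 0.32 (95% interval 0.07 to 0.57, edgeR adjusted p = 0.246).

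4 members serve apoptosis. Bax (chromosome 7, 45461697 to 45466898), which forms pores in the outer mitochondrial membrane, was at 51.3 and 51.6 RPKM in the WT libraries and at 64.3 and 62.7 RPKM in the Nfat5-/- libraries. The replicates of Bax agreed closely in both groups and the groups were apart, with a log2 fold change of 0.32 (95% interval 0.10 to 0.55, edgeR adjusted p = 0.192). Of the exon reads of Bax, 71.5% were placed at a single site, the lowest share among the members, so its level depends in part on how shared reads were assigned. Bbc3 (chromosome 7, 16308393 to 16318205) encodes Puma, a BH3-only protein that sets Bax free. It had few reads, from 170 to 292 per library, and was at 4.96 and 4.17 RPKM in the WT libraries and at 5.79 and 6.22 RPKM in the Nfat5-/- libraries (log2 fold change 0.44, 95% interval 0.05 to 0.84, edgeR adjusted p = 0.298). Both Nfat5-/- values of Bbc3 lay above both WT values.

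Aen (chromosome 7, 78895854 to 78911209), a nuclease that cuts DNA during apoptosis, was at 11.2 and 13.2 RPKM in the WT libraries and at 17.2 and 16.4 RPKM in the Nfat5-/- libraries. The groups did not overlap, and the log2 fold change was 0.48 (95% interval 0.21 to 0.75, edgeR adjusted p = 0.108). As for Mdm2, Aen passed the threshold with DESeq2 (adjusted p = 0.0305) and with edgeR when WT replicate 2 was left out (adjusted p = 0.0465). Its edgeR adjusted p was 0.289 without WT replicate 1 and 0.269 or 0.465 without Nfat5-/- replicate 1 or 2, and limma-trend on log2(RPKM + 1) gave 0.279. Perp (chromosome 10, 18845020 to 18857073) encodes a membrane protein of desmosomes, is driven by p63 as well as by p53, and was by far the most abundant member. It was at 822 and 629 RPKM in the WT libraries and at 684 and 747 RPKM in the Nfat5-/- libraries. Both Nfat5-/- values lay between the WT values, and the log2 fold change was 0.00 (95% interval -0.34 to 0.34, edgeR adjusted p = 0.999).

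Trp53inp1 (chromosome 4, 11156431 to 11174379), a stress protein that acts with p53 and in autophagy, was the member with the largest difference. It was at 5.84 and 5.82 RPKM in the WT libraries and rose to 9.36 and 11.8 RPKM in the Nfat5-/- libraries. The WT libraries were nearly equal and both Nfat5-/- libraries lay well above them, with a log2 fold change of 0.86 (95% interval 0.53 to 1.19), which is a factor of 1.82, and an edgeR adjusted p of 0.0416. This call is close to the threshold. Without Nfat5-/- replicate 1 the log2 fold change was 1.04 and the adjusted p 0.0651, and without Nfat5-/- replicate 2 they were 0.67 and 0.207. With limma-trend on log2(RPKM + 1), which called 1 gene in all, the adjusted p was 0.230.

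Zmat3 (chromosome 3, 32334792 to 32366014), an RNA-binding protein that regulates splicing downstream of p53, was at 12.8 and 12.3 RPKM in the WT libraries and at 13.7 and 15.0 RPKM in the Nfat5-/- libraries. The groups were apart by a narrow margin, with a log2 fold change of 0.21 (95% interval -0.04 to 0.46, edgeR adjusted p = 0.430). Gdf15 (chromosome 8, 70629393 to 70632456) encodes a secreted stress cytokine that is induced by p53 and also by ATF4, the factor of the amino acid and endoplasmic reticulum stress response. It was the least abundant member, at 2.63 and 1.51 RPKM in the WT libraries and at 1.52 and 0.792 RPKM in the Nfat5-/- libraries. These values rest on 81, 62, 68 and 28 reads. Nfat5-/- replicate 2 was lowest, WT replicate 2 and Nfat5-/- replicate 1 nearly coincided, and the log2 fold change was -0.79 with a wide 95% interval of -1.73 to 0.15 (edgeR adjusted p = 0.419).

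Few reads of the members fell into introns, which would show unspliced RNA. Mdm2 had 29 and 48 intron reads in the WT libraries and 50 and 58 in the Nfat5-/- libraries, Bbc3 4 and 4 against 11 and 9, Trp53inp1 16 and 20 against 19 and 18, and Gdf15 none in any library. The share of intron reads over the 4 libraries did not exceed 3.11% in any member. These counts are too low to compare transcription between the genotypes. Bax was the only member to overlap another listed gene, Gm45808 on the same strand.

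**Figure D2:**
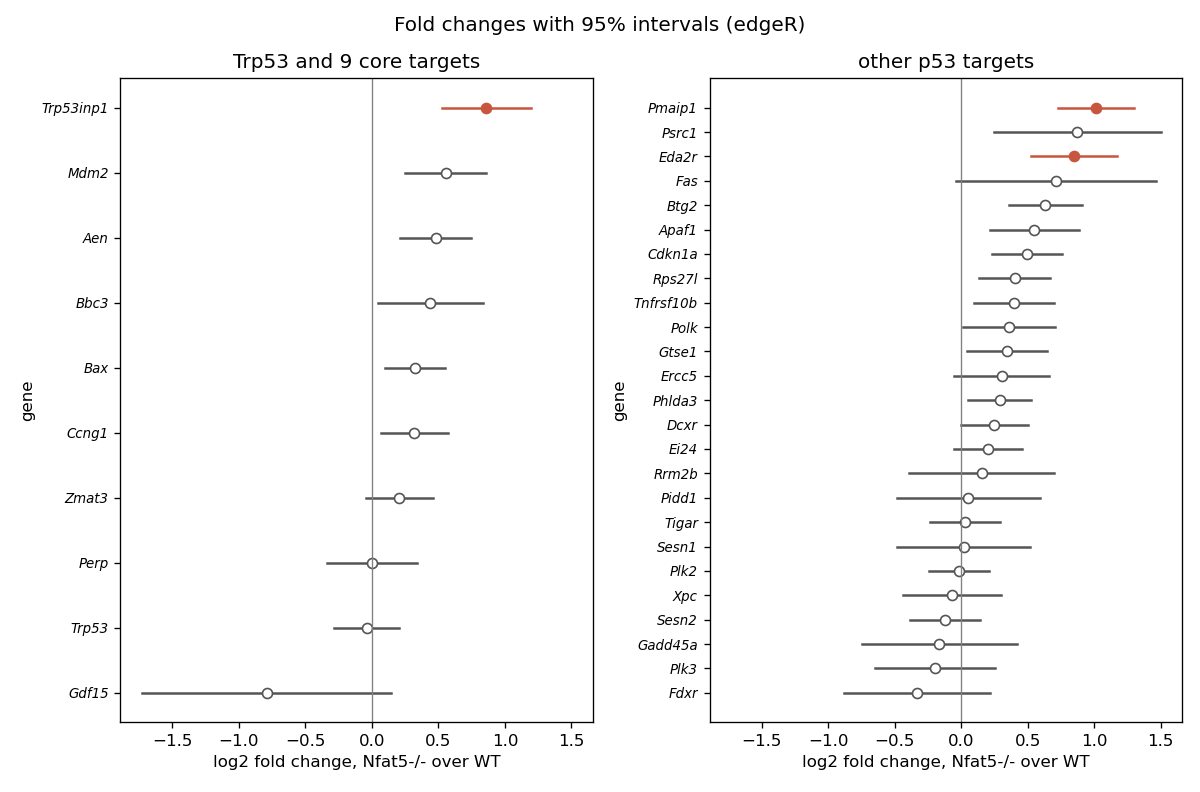
Log2 fold change between Nfat5-/- and WT KCs (x axis) for Trp53 and its 9 core targets (left) and for 25 other p53 targets (right), with points for the edgeR estimate and lines for its 95% interval. Filled red points mark the 3 genes with an adjusted p under 0.05, Trp53inp1, Pmaip1 and Eda2r, and open points the others, of which most lie to the right of 0.

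Most other targets of p53 had higher values in Nfat5-/- KCs as well. Their list was chosen with earlier results of these data known, so it is no independent check of the members. Of 25 further genes that are well known as p53 targets, all were tested, and 19 had a higher level in Nfat5-/- KCs, where 48% of all genes tested did. In 15 of them the groups did not overlap and Nfat5-/- was higher, against 21.6% of all genes tested. In 2 (Sesn2 and Fdxr, named after their values were seen) the groups were apart in the other direction, against 25%. Their median log2 fold change was 0.29. Without adjustment 11 had an edgeR p under 0.05, all with a higher level in Nfat5-/- KCs, against 8.17% of all genes tested, and 2 passed the adjusted threshold upwards, against 0.943%.

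Pmaip1, the gene of the BH3-only protein Noxa, was at 60.8 and 53.1 RPKM in the WT libraries and rose to 107 and 120 RPKM in the Nfat5-/- libraries. The groups were far apart, with a log2 fold change of 1.01 (95% interval 0.73 to 1.30, edgeR adjusted p = 0.0203). Eda2r, which encodes a receptor of the tumour necrosis factor family for ectodysplasin A2, was at 1.98 and 1.94 RPKM in the WT libraries and rose to 3.39 and 3.54 RPKM in the Nfat5-/- libraries (log2 fold change 0.85, 95% interval 0.52 to 1.17, edgeR adjusted p = 0.0404). Both calls were lost when either Nfat5-/- library was left out, with adjusted p-values of 0.0652 and 0.116 for Pmaip1 and of 0.133 and 0.277 for Eda2r, and that of Eda2r also without WT replicate 1 (0.0569). With limma-trend on log2(RPKM + 1) the adjusted p-values were 0.179 and 0.217. Cdkn1a, the gene of p21, was at 189 and 204 RPKM in the WT libraries and at 257 and 289 RPKM in the Nfat5-/- libraries, with a log2 fold change of 0.50 (95% interval 0.23 to 0.76, edgeR adjusted p = 0.0968). Btg2, an inhibitor of proliferation, was at 15.1 and 14.6 RPKM in the WT libraries and at 21.3 and 24.0 RPKM in the Nfat5-/- libraries (log2 fold change 0.63, edgeR adjusted p = 0.0584). DESeq2 gave adjusted p-values of 0.0050 for Cdkn1a and 0.0029 for Btg2. When 1 library was left out, the edgeR adjusted p-values lay between 0.0906 and 0.462 for Cdkn1a and between 0.0698 and 0.339 for Btg2.

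The list medians were close in both Nfat5-/- libraries, while single genes varied. Relative to the mean of the WT libraries, the median level of the 9 members other than Trp53 was 1.25 in Nfat5-/- replicate 1 and 1.24 in replicate 2, and that of the 25 other targets was 1.19 in both. Of the 9 members 3, and of the 25 other targets 7, were lower in replicate 2 than in replicate 1. Trp53inp1 stood at 1.6 and 2.02 times the WT mean in replicates 1 and 2. The corresponding medians over all genes were 0.999 and 0.968. When each library was left out in turn, the median log2 fold change of the 10 members stayed between 0.29 and 0.34, and that of the other targets between 0.27 and 0.31. Of the 25 other targets, 21 had higher values in Nfat5-/- KCs without Nfat5-/- replicate 1 and 16 without replicate 2.

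The regulators of p53 moved in no common direction, and Cdkn2a stood out among them. Of 24 regulators tested, 11 had a higher and 13 a lower level in Nfat5-/- KCs, with a median log2 fold change of -0.01, and 1 passed the threshold, against 1.27% of all genes tested. Cdkn2a encodes 2 proteins in different reading frames, the CDK inhibitor p16 and Arf, which binds Mdm2 and thereby frees p53. It was at 11.8 and 14.6 RPKM in the WT libraries and rose to 53.8 and 72.0 RPKM in the Nfat5-/- libraries, a log2 fold change of 2.27 (95% interval 1.84 to 2.71, edgeR adjusted p = 0.00579). When 1 library was left out, its edgeR adjusted p was at most 0.0308, while limma-trend on log2(RPKM + 1) gave an adjusted p of 0.149. The tables give 1 value for the gene, so that transcripts for p16 and for Arf cannot be told apart. Mdm4, the partner of Mdm2 in restraining p53, was at 2.51 and 2.46 RPKM in the WT libraries and at 2.49 and 2.20 RPKM in the Nfat5-/- libraries (log2 fold change -0.08, edgeR adjusted p = 0.807).

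Of the 24 regulators, 5 were apart with lower values in Nfat5-/- KCs and 3 with higher values, against 25% and 21.6% of all genes tested. The checkpoint kinases Chek1 and Chek2, which activate p53, were among the 5. The kinases Atm and Atr overlapped between the groups, with log2 fold changes of 0.07 and 0.04. Chek1 was at 3.76 and 2.96 RPKM in the WT libraries and at 2.42 and 1.41 RPKM in the Nfat5-/- libraries (log2 fold change -0.76, edgeR adjusted p = 0.255), and Chek2 had a log2 fold change of -0.43 (edgeR adjusted p = 0.308). Cop1, another ubiquitin ligase of p53, had one of -0.24 (edgeR adjusted p = 0.360). None of these passed the threshold. The ratio of Mdm2 to Trp53 RNA on the RPKM scale was 0.281 and 0.315 in the WT libraries and 0.440 and 0.468 in the Nfat5-/- libraries, and that of Bax to Bcl2l1, the gene of the anti-apoptotic protein Bcl-xL, was 1.21 and 1.41 against 1.80 and 1.71.

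**Figure D3:**
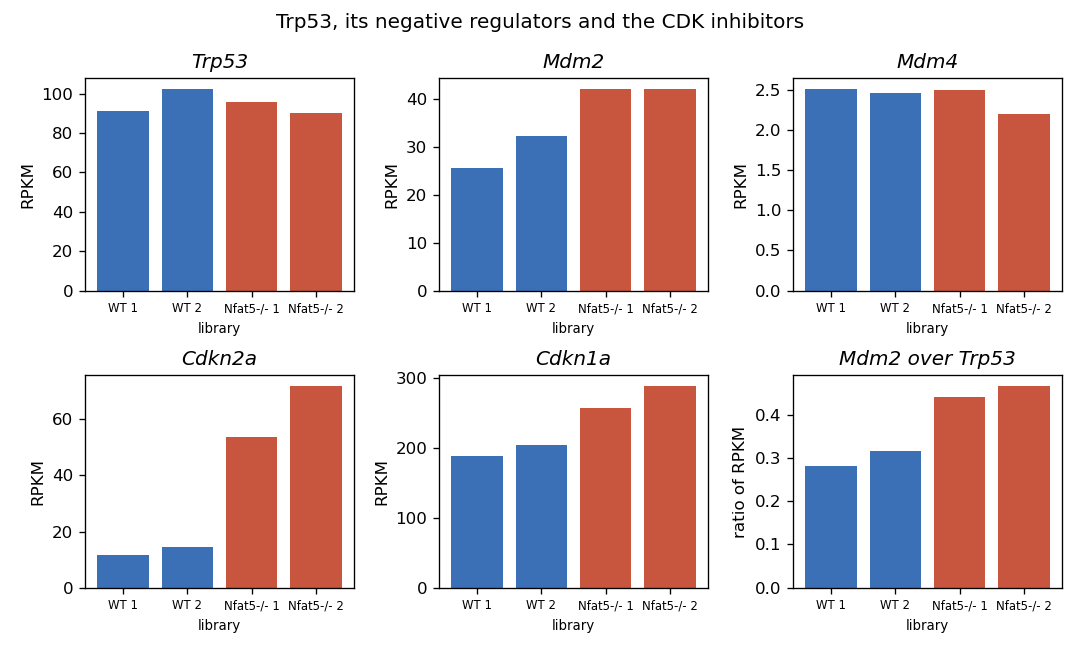
Level of Trp53, Mdm2, Mdm4, Cdkn2a and Cdkn1a (bars, in RPKM) and the ratio of Mdm2 to Trp53 in each of the 4 libraries, with WT in blue and Nfat5-/- in red. The groups overlap for Trp53 and Mdm4, Mdm2 and Cdkn1a are higher in both Nfat5-/- libraries, and Cdkn2a goes from at most 14.6 RPKM in the WT libraries to at least 53.8 RPKM in the Nfat5-/- libraries.

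Among the CDK inhibitors, 6 of 7 had a fitted log2 fold change above 0, against 48% of all genes tested, and 1, Cdkn2a, passed the threshold upwards, against 0.943% (median log2 fold change 0.14). Cdkn2b, the gene of p15, had a log2 fold change of 0.34 (edgeR adjusted p = 0.329) and Cdkn2c, the gene of p18 and the sole one with a fitted value below 0, one of -0.23 (edgeR adjusted p = 0.684). Per length of RNA, Cdkn1a remained more abundant than Cdkn2a. The ratio of Cdkn2a to Cdkn1a was 0.0623 and 0.0714 in the WT libraries and 0.209 and 0.250 in the Nfat5-/- libraries. Cdkn2b was at 46.4 and 60.5 RPKM in the WT libraries, above Cdkn2a, and at 65.7 and 67.6 RPKM in the Nfat5-/- libraries.

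Growth arrest was read from 26 genes of DNA replication and mitosis that p53 is known to lower through p21 and the DREAM repressor complex. Of these, 25 had a lower level in Nfat5-/- KCs, with a median log2 fold change of -0.29. In 15 of them the groups were apart with Nfat5-/- lower, against 25% of all genes tested. None passed the edgeR threshold, against 0.325% of all genes tested downwards. An unadjusted edgeR p under 0.05 was found for 6, against 6.47% of all genes tested in that direction. DESeq2 called 1 of the list (Mcm6), and 427 among all genes, of which 121 were lower. Mcm6, a subunit of the replicative helicase, was at 20.5 and 19 RPKM in the WT libraries and at 15.1 and 10.9 RPKM in the Nfat5-/- libraries (log2 fold change -0.59, edgeR adjusted p = 0.136). E2f1, a factor that drives entry into S phase, had a log2 fold change of -0.48 (edgeR adjusted p = 0.132), Foxm1, which drives mitotic genes, one of -0.51 (edgeR adjusted p = 0.217), and Cdc6, which loads the helicase onto origins, one of -0.72 (edgeR adjusted p = 0.237).

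The cell cycle genes had lower values in Nfat5-/- replicate 2 than in replicate 1. Their median level relative to the mean of the WT libraries was 0.947 in Nfat5-/- replicate 1 and 0.653 in replicate 2, and 25 of the 26 genes were lower in replicate 2 than in replicate 1. Replicate 1 lay below both WT libraries in 15 genes and above both in 6, and replicate 2 below both in 25. Of the 12286 tested genes with a value above 0 in every library, 7022 were lower in replicate 2 than in replicate 1, replicate 1 lay below both WT libraries in 4241 and above both in 4332, and replicate 2 lay below both in 5369. Without Nfat5-/- replicate 1 the median log2 fold change of these genes was -0.58, and without replicate 2 it was -0.08, with 9 of the 26 genes then higher in Nfat5-/- KCs. The medians of the p53 targets in the same libraries are those given above, 1.25 and 1.24 for the members and 1.19 in both for the other targets. With 2 libraries per genotype a relation between the levels across libraries was not computed, and no test of the difference between the lists was made.

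**Figure D4:**
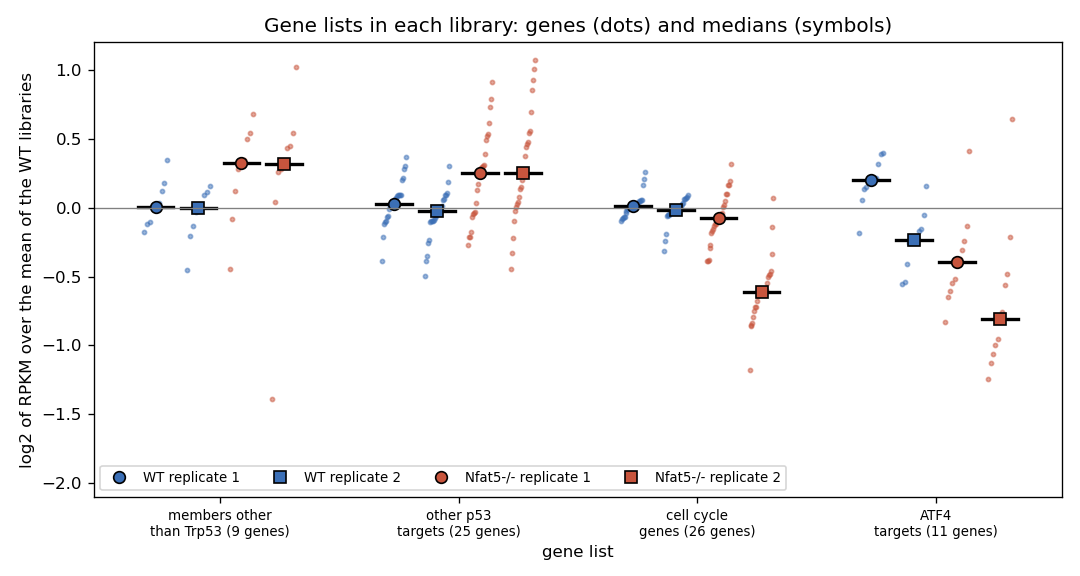
Genes (dots) and list medians (large symbols with a bar) in each library for the 9 members other than Trp53, 25 other p53 targets, 26 cell cycle genes and 11 ATF4 targets, as the log2 of RPKM over the mean of the WT libraries (y axis; circles are replicate 1, squares replicate 2). The medians of both p53 lists are above the WT mean in both Nfat5-/- libraries, and those of the cell cycle genes stand at 0.947 and 0.653 times the WT mean in replicates 1 and 2.

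The targets of ATF4, which share Gdf15 with p53, had lower values. Of 11 genes in this list, Atf4 itself included, 10 had a lower level in Nfat5-/- KCs and 9 of these did not overlap between the groups, against 25% of all genes tested (median log2 fold change -0.60). None passed the edgeR threshold, against 0.325% of all genes tested downwards. An unadjusted edgeR p under 0.05 was found for 8, against 6.47% of all genes tested in that direction. The smallest adjusted p-values were those of 2 enzymes of serine and glycine synthesis, Shmt2 (log2 fold change -0.72, edgeR adjusted p = 0.0880) and Psat1 (-0.82, edgeR adjusted p = 0.0901), followed by Trib3, a pseudokinase that feeds back on ATF4 (-1.0, edgeR adjusted p = 0.108), and Asns, the asparagine synthetase (-0.64, edgeR adjusted p = 0.136). These 4 genes passed with DESeq2, with adjusted p-values of 0.0017, 0.00090, 0.0012 and 0.0124 in the same order, and with edgeR without WT replicate 2 (0.0202, 0.0193, 0.0026 and 0.0149). With any other library left out, their edgeR adjusted p-values lay between 0.0998 and 0.633. Among all genes, DESeq2 called 427, of which 121 were lower. The median level of the list was 1.15 and 0.850 times the WT mean in WT replicates 1 and 2. It was 0.759 and 0.571 times that mean in Nfat5-/- replicates 1 and 2. The level of Gdf15 was 0.736 and 0.382 times its WT mean in Nfat5-/- replicates 1 and 2. Whether ATF4 bears on Gdf15 in these cells was not tested.

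The partners of the p53 targets in apoptosis had log2 fold changes between -0.27 and 0.16. Of 7 genes, 3 had a higher and 4 a lower level in Nfat5-/- KCs (median log2 fold change -0.06), and 0 passed an edgeR p under 0.05 with or without adjustment, against 1.27% and 14.6% of all genes tested. Bcl2 (-0.27, edgeR adjusted p = 0.508), Mcl1 (0.16, edgeR adjusted p = 0.514) and Bcl2l1 (-0.10, edgeR adjusted p = 0.737) encode inhibitors of Bax, and Cycs (-0.09, edgeR adjusted p = 0.838) encodes cytochrome c, which is released through the pores that Bax forms. Of the relatives of p53, Trp63 was at 17.1 and 19.9 RPKM in the WT libraries and at 17.9 and 17.7 RPKM in the Nfat5-/- libraries (log2 fold change -0.04, edgeR adjusted p = 0.894). Trp73 had between 2 and 6 reads per library and could not be tested.

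Markers of other cell types differed between the genotypes in the same libraries. The 5 smooth muscle markers summed to 184 and 151 RPKM in the WT libraries and to 518 and 819 RPKM in the Nfat5-/- libraries, and 4 of the 4 that could be tested passed the threshold upwards (Acta2, Tagln, Myh11 and Cnn1), against 0.943% of all genes tested, while Des had 1 read in a single library. The 7 melanocyte markers summed to 7.76 and 7.34 RPKM in the WT libraries and to 2.31 and 3.26 RPKM in the Nfat5-/- libraries. Of the 5 that could be tested 1, Tyrp1, passed the threshold downwards (edgeR adjusted p = 0.0203), against 0.325% of all genes tested. The 7 fibroblast markers summed to 4.53 and 2.02 RPKM in WT and to 5.43 and 9.11 RPKM in Nfat5-/- KCs, mostly from Vim, with Col3a1, Dcn and Lum at 0 in at least 1 library. The 5 markers of suprabasal KCs summed to 5.52 and 4.97 RPKM and to 7.31 and 10.6 RPKM, the 5 of immune cells to 1.44 and 2.93 RPKM in WT and to 4.22 and 3.28 RPKM in Nfat5-/- KCs, and the 4 of endothelial cells to between 0.555 and 0.777 RPKM, and none in these 4 lists passed the threshold. In bulk RNA a different number of cells of a type and a different amount of RNA per cell cannot be told apart. Which cells these marker reads came from was not tested, nor was the part of such cells in the values of the p53 targets.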

How the data were processed

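The authors sequenced polyadenylated RNA, trimmed the reads and aligned them to the mouse genome (GRCm38) with the CLC Genomics Workbench. They deposited 1 table per library with read counts per gene (total, exon, intron and uniquely placed reads, not normalized) and RPKM values. Group and replicate were taken from the sample titles. Total gene reads were tested with edgeR 4.0.16 in R 4.3.3: filterByExpr, TMM factors, the quasi-likelihood test with genotype as the sole term, two-sided, and Benjamini-Hochberg adjustment over 12614 genes. Intervals are 95% intervals of the log2 fold change. DESeq2 1.42.0 and limma 3.58.1 served as alternatives, and the procedure was tested on simulated data. Whether strand was used in counting is not given in the sources used here. The members and the 16 further lists were chosen with earlier results of these data known. From each list every gene past the threshold was named, and the 4 with the smallest p where fewer than 4 passed, besides the members, Nfat5, Cdkn1a, Cdkn2a, Mdm4, Trp63 and Trp73. Some genes that this rule picks are not reported here. Lists of cell type markers are given by counts and sums.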

Additional observations from a re-analysis of the deposited data

How the results depend on the processing

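Counts of calls depended on the setting, while most directions did not. Over all genes, 160 passed with edgeR, 1137 without a filter, 427 with DESeq2, 1 with limma-trend on log2(RPKM + 1) and on log2(RPKM + 0.1) alike, 364 at an adjusted p under 0.1, and 16 to 478 when 1 library was left out. Of the members 1 passed with edgeR, 3 (Mdm2, Trp53inp1 and Aen) without a filter or with DESeq2, 0 with either limma-trend fit, and 0 to 3 when 1 library was left out. Of the other p53 targets 2 passed, against 8 without a filter, 4 with DESeq2 or at an adjusted p under 0.1, 0 with either limma-trend fit, and 0 to 3 when 1 library was left out. Of the cell cycle genes 0 passed, against 6 without a filter and 1 with DESeq2, and of the p53 regulators 1, against 2 without a filter and 0 with either limma-trend fit. The causes were not tested. With the replicate number as a block, 0 members and 1 other target (Pmaip1) passed, and the adjusted p-values of Trp53inp1 and Eda2r were 0.0557 and 0.0662, which end both calls, while those of the ATF4 targets Shmt2 (0.0470), Psat1 (0.0325) and Trib3 (0.0300) fell under the threshold; deviations of same-numbered libraries correlated at -0.0655, so the numbers are not taken to pair the samples. Log2 fold changes near 0 changed sign. That of Perp was -0.0204 with library totals only, -0.0086 with both limma-trend fits, -0.0065 on exon reads and -0.0084 on uniquely placed exon reads, and that of Cycs was 0.0153 on uniquely placed exon reads. When 1 library was left out, the log2 fold change ranged from -0.182 to 0.217 for Perp, -0.11 to 0.044 for Trp53, -0.232 to 0.529 for Nfat5, -0.179 to 0.0082 for Mdm4, -0.137 to 0.0631 for Trp63, -0.675 to 0.307 for Fermt1, -0.209 to 0.0201 for Bcl2l1, -0.283 to 0.0816 for Cycs, -0.51 to 0.081 for Hmgb2, -0.371 to 0.0702 for Lmnb1 and -0.576 to 0.175 for Il1a. Gdf15 rests on 28 to 81 reads per library, and its 95% interval of -1.73 to 0.15 was the widest of the members.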

Other observations

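Genes that p63 is known to drive in KCs were looked at in a list of 7. Of the 6 that could be tested, 3 had a higher and 3 a lower level in Nfat5-/- KCs (median log2 fold change -0.05). None passed the edgeR threshold, against 1.27% of all genes tested. Satb1, a chromatin organizer, had the smallest p, with 19 and 21 reads in the WT libraries and 64 and 38 reads in the Nfat5-/- libraries (log2 fold change 1.18, edgeR adjusted p = 0.167). Fgfr2, a receptor of keratinocyte growth factor, had a log2 fold change of 0.12 (edgeR adjusted p = 0.617). Of its reads 78.8% lay in introns, so this value is mostly not one of spliced RNA. On exon reads it was 0.17 (edgeR adjusted p = 0.638). Fermt1, which activates integrins, had a log2 fold change of -0.27 (edgeR adjusted p = 0.705). The WT libraries of Fermt1 lay far apart, at 33.9 and 67.8 RPKM, and its log2 fold change was -0.67 (edgeR adjusted p = 0.0339) without WT replicate 1 and 0.31 (edgeR adjusted p = 0.296) without WT replicate 2.

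The genes associated with senescence, a lasting arrest in which Cdkn2a is typically high, were looked at in a list of 9. Of 8 that could be tested, 2 had a higher and 6 a lower level in Nfat5-/- KCs (median log2 fold change -0.13), and 0 had an edgeR p under 0.05 with or without adjustment, against 14.6% and 1.27% of all genes tested without and with it. Lmnb1 and Hmgb2, which senescent cells lower, had log2 fold changes of -0.13 and -0.18 (edgeR adjusted p = 0.744 and 0.711). Il1a, an inflammatory cytokine of KCs, had one of -0.15 (edgeR adjusted p = 0.821).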
